A study of Mus musculus with 2 samples.

Results

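Synaptotagmins are a family of vesicle and plasma membrane proteins, and 10 of their genes were followed here in layer 5 of the mouse cerebral cortex: Syt1, Syt3, Syt4, Syt5, Syt6, Syt7, Syt11, Syt12, Syt13 and Syt17. They were chosen as a family by gene symbol, with earlier results of these data known, and make up 10 of the 69691 gene rows in the tables, of which 21474 are protein-coding genes. The RNA came from 2 areas of layer 5, each about 8000 square microns, cut by laser capture and entered in the labels as 50 cells. The animal was a wild-type male mouse aged 8 months, given as C57Bl6 in one label and B6NCrl in another. No area was treated, so the labels hold 1 group, with replicates 1 and 2. Both replicates carry the same donor in the labels and were taken as areas of 1 animal. Each area gave 1 library, so every SD below is the spread between 2 libraries. Area and library preparation cannot be told apart in it, and no test across animals was possible.

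Most synaptotagmins carry a membrane anchor and a pair of C2 domains, which in some members bind calcium and then insert into membranes beside the SNARE fusion complex. The calcium-binding members, among them Syt1, Syt3, Syt5, Syt6 and Syt7, differ in calcium affinity and speed. Others, among them Syt4, Syt11, Syt12, Syt13 and Syt17, lack part or all of the residues that hold calcium. In the cortex the family is best known for coupling calcium entry to transmitter release, and some members act on dense-core vesicles, dendrites or endocytosis.

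Replicate 1 held 26059117 expected counts, the estimated reads per gene, and replicate 2 held 28276843. Spike-in RNA took 7.19% and 7.94% of them. CPM, the library-scaled count, has a floor of 3 counts, or 0.115 for replicate 1 and 0.106 for replicate 2, below which a count of 0 cannot tell. Neither library was a copy of the other. Markers of the labelled tissue were present: 8 of 8 neuron markers reached 1 TPM, a measure of abundance per length and per library, in both areas, and so did 6 of 6 excitatory and 8 of 8 layer 5 markers. Their sums were 8457 and 9794 TPM for neuron markers, and 1389 and 1591 TPM for excitatory markers. Single markers of the labelled tissue differed more than these sums. Of the 8 layer 5 markers, 2 were higher in replicate 1 and 6 in replicate 2 in TPM. Beyond 2-fold were Parm1, at 30.7 and 9.03 TPM, and Rbp4, at 42.1 and 88.2 TPM. Of the 6 excitatory markers, 5 were higher in replicate 2, with Slc17a7 at 56.2 and 112 TPM. The marker sums of several other cell types differed more than those of neurons. GABAergic markers summed to 1614 TPM in replicate 1 and 3158 TPM in replicate 2, but that direction rests on Sst alone, at 194 and 2859 TPM. Without Sst they summed to 1419 and 299 TPM, with Pvalb at 918 and 145 TPM and Gad1 at 438 and 65.2 TPM, and of the 6 genes, Sst included, that averaged at least 1 TPM, 3 were higher in each area. Oligodendrocyte markers summed to 545 and 943 TPM, with 7 of 7 higher in replicate 2. Microglial markers summed to 255 and 86.9 TPM, endothelial markers to 113 and 51.3 TPM, and erythrocyte markers to 8.46 and 282 TPM. Of 4 meningeal fibroblast markers, Dcn and Lum were at 0 in both areas. The other meningeal markers were below 1 TPM, with Col1a2 at 38 and 0 counts and Col1a1 at 1 and 9 counts. Astrocyte markers summed to 625 and 727 TPM and oligodendrocyte precursor markers to 9.56 and 28.4 TPM, of which Olig1 held 8.51 and 27.4 TPM and the other 3 held 1.05 and 1.0 TPM. The part of these cells in the differences given below was not tested, and in such bulk samples fewer cells of a type and less RNA per cell cannot be told apart.

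The synaptotagmins of layer 5 spanned a wide range, led by the fast release sensor Syt1 and followed by Syt11, which does not bind calcium. Of the 10 genes, 9 reached 1 TPM in both areas, against 51.5% of all protein-coding genes. Together they held 886 TPM in replicate 1, against 1146 TPM in replicate 2, or 1016 ± 184 TPM (SD, n = 2). Their median level was 29.4 TPM (replicate 1) and 44.0 TPM (replicate 2), while the median protein-coding gene had 1.83 and 1.79 TPM. That sum was unevenly divided, and other synaptotagmins, such as Syt2 and Syt16, are outside it. Syt1 alone supplied 42.6% of the summed TPM of the 10 genes in replicate 1 and 49.7% in replicate 2. Syt11 supplied 24.4% and 20.9%, and Syt4 supplied 13.5% and 8.81%. These 3 genes made up 80.5% and 79.4% of the total.

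Ordered by mean TPM, the genes ran Syt1, Syt11, Syt4, Syt5, Syt13, Syt3, Syt12, Syt7, Syt17 and Syt6. The ranges of neighbours over the areas did not overlap at 4 places in that order: Syt1 lay above Syt11, Syt11 above Syt4, Syt5 above Syt13, and Syt3 above Syt12. The ranges of the other neighbours overlapped. Within each area Syt13 still lay above Syt3, with 32.6 against 26.3 TPM in replicate 1 and 51.7 against 36.2 TPM in replicate 2. Syt4 and Syt5, Syt12 and Syt7, Syt7 and Syt17, and Syt17 and Syt6 changed places between the areas and could not be ordered. The calcium-binding members summed to 499.7 TPM in replicate 1 and 738 TPM in replicate 2, of which Syt1 was the greater part. The members without full calcium binding summed to 387 and 409 TPM. They thus took 43.6% of the family's TPM in replicate 1 and 35.6% in replicate 2.

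**Figure D1:**
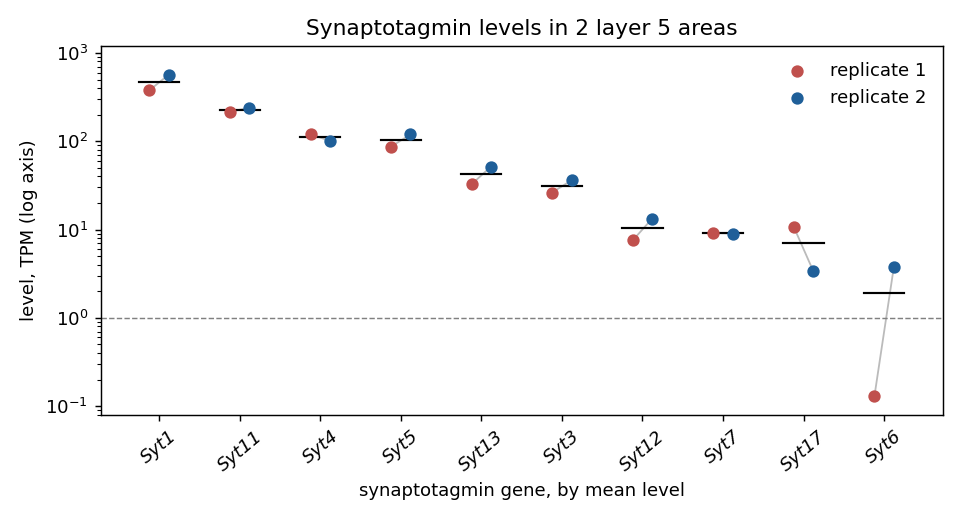
Level of each of the 10 synaptotagmin genes in TPM on a log axis, with replicate 1 on the left and replicate 2 on the right of each gene, a bar at the mean of the 2 areas and a dashed line at 1 TPM. Syt1 stands at the top with 377 and 569 TPM, and Syt6 is the one gene that lies below the line in replicate 1, at 0.13 TPM.

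Syt1 encodes the synaptic vesicle protein that triggers fast, synchronous transmitter release when calcium enters the nerve terminal. Its gene (ENSMUSG00000035864.10) lies on the minus strand of chromosome 10 from 108497650 to 109010982 on mm10, as do all positions below. It stood at 377 TPM in replicate 1 and 569 TPM in replicate 2, a mean of 473 ± 136 TPM (SD, n = 2), and ranked 295 and 181 among protein-coding genes. Of the 10 genes it was the highest in each area. It stood 1.75 and 2.38 times above Syt11, 4.34 and 4.77 times above Syt5, and 41.2 and 63.3 times above Syt7. Its log2 ratio of replicate 1 over replicate 2, taken on TPM + 1 as throughout, was -0.59. The ratio of its counts per library total was 0.686, with an exact 95% interval of 0.676 to 0.696 for counting error only. Few genes of like abundance differed as much: 5.29% of the 1020 protein-coding genes at a mean of 100 to 500 TPM had a larger difference in either direction, and their median size was 0.18.

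The transcript tables divided Syt1 in nearly the same way in both areas. The protein-coding transcript Syt1-201 took 72.0% of the gene's TPM in replicate 1 and 74.8% in replicate 2. Syt1-202, which has the same 1266 coding bases, took 4.58% and 4.48%. Together these coding forms held 76.6% and 79.2%. Most of the remainder was Syt1-206, annotated as a processed transcript with no coding sequence, at 18.8% in replicate 1 and 18.1% in replicate 2. It rested on 1548 and 2330 expected counts. A retained-intron form, Syt1-204, had 4.29% and 2.46%. Grouped by start, transcripts that begin near 109010982 held 81.3% ± 0.573 of Syt1 (SD, n = 2), and those that begin near 109009111 held 18.5% ± 0.474. The division of Syt1 between its start regions thus differed between the areas by under 1 percentage point.

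RefSeq lists a start in each of these regions, and the 250 bases before each are shown because the transcripts that begin there differ in whether they code for protein. Both windows are from GRCm38.p6, minus strand, at chr10:109010976-109011225 for the upstream start and chr10:109009112-109009361 for the downstream start. Capitals mark GGGCGG, the GC box, and CCAAT, searched on both strands without overlaps.
Syt1 upstream start: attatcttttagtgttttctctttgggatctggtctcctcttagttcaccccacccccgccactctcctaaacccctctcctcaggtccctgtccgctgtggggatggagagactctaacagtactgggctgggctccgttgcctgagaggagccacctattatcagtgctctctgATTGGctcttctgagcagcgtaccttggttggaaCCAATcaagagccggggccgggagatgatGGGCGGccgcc
Syt1 downstream start: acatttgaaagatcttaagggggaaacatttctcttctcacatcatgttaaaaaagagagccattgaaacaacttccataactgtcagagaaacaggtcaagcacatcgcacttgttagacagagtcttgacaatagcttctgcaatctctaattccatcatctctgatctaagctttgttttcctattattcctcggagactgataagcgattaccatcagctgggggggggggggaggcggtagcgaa
The upstream window was 56.4% G and C, with 8 CG pairs, 1 GGGCGG and 2 CCAAT matches. The downstream window was 42.8% G and C, with 5 CG pairs and no match to either motif. Over 32851 RefSeq windows of the same length the median was 52.4% G and C, GGGCGG was found in 32.7%, CCAAT in 33.8% and TATAAA in 12.4%. TATAAA was in neither Syt1 window. A match describes these letters alone.

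Among the other calcium-binding members, Syt5 was the most abundant and Syt6 was almost absent from replicate 1. Syt5 is a vesicle protein also known from dense-core vesicles, whose name is exchanged with that of Syt9 in part of the literature. Here it means ENSMUSG00000004961.6, on the minus strand of chromosome 7 from 4539765 to 4547541. It had 86.9 TPM in replicate 1 and 119 TPM in replicate 2, with 3082 and 4375 counts. Its log2 ratio was -0.45 and 12.3% of genes in its abundance class differed by more. It was listed with 1 transcript.

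Syt3 has been linked to the removal of AMPA receptors from the postsynaptic membrane. The gene (ENSMUSG00000030731.9, chromosome 7, 44384102 to 44400187, plus strand) had 26.3 TPM in replicate 1 and 36.2 TPM in replicate 2. Its log2 ratio was also -0.45, and 24.9% of the 3189 genes at 20 to 100 TPM differed by more. Transcripts with 1 and the same coding sequence of 1764 bases supplied 96.9% and 97.3% of Syt3. Within them, Syt3-202 held 61.2% in replicate 1 and 57.5% in replicate 2, and Syt3-201 held 35.0% and 39.8%. Syt3 was thus divided between transcripts that differ outside the coding sequence, with the same leader in both areas.

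Syt7 is a slow sensor of high calcium affinity that acts in asynchronous release, facilitation and lysosome exocytosis. The gene (ENSMUSG00000024743.10, chromosome 19, 10389090 to 10453180, plus strand) had 9.16 TPM in replicate 1 and 9.0 TPM in replicate 2, on 1253 and 1274 counts. Its mean of 9.08 ± 0.113 TPM (SD, n = 2) came with the smallest difference of the 10 genes, a log2 ratio of 0.02, and 96.7% of the 4089 genes at 5 to 20 TPM differed by more. Under spike-in scaling its ratio was 0.23 and that of Syt11 was nearer to 0. The count ratio of replicate 1 over replicate 2 was 1.07, and its 95% interval of 0.986 to 1.15 held 1. Syt7 was the 1 gene of the 10 for which that was so. The matching share over all genes was not computed, so that count has no background beside it. Behind the even level, the estimated transcript shares moved. Syt7-201, the shortest listed form, led with 58.2% in replicate 1 and 74.9% in replicate 2, Syt7-203 had 17.1% and 22.3%, and Syt7-202 had 24.7% and 2.86%. The counts given to Syt7-202 were 310 and 36.5. However, its deposited TPM intervals, 0.942 to 3.88 in replicate 1 and 0.0122 to 1.19 in replicate 2, overlapped, so the files do not separate its level between the areas. Syt7-202 and Syt7-203 are listed as 132 and 492 bases longer than Syt7-201. Those lengths are from annotation M4, and the later release M21 gives each of these 3 transcripts another length, so the exons behind the difference are not named here.

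Syt6, known from acrosomal exocytosis in sperm, had the lowest mean of the 10, though in replicate 2 Syt17 was lower, and differed the most. The gene (ENSMUSG00000027849.14, chromosome 3, 103575231 to 103645569, plus strand) had 0.13 TPM in replicate 1 and 3.72 TPM in replicate 2, from 12 and 296 counts. The deposited TPM intervals, which belong to a posterior mean and whose level is not stated, were 0.183 to 0.634 and 3.51 to 4.71. The values were thus far apart beyond counting error, with replicate 1 below the 1 TPM set for detection. Counts per library total were 22.7 times higher in replicate 2, with an exact 95% interval of 12.8 to 44.5. On the log2(TPM + 1) scale the ratio of replicate 1 over replicate 2 was -2.06, and 2.22% of the 3330 genes at 1 to 5 TPM differed by more.

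Where Syt6 was seen, a large part of it was assigned to a transcript outside the protein-coding class of the annotation. Syt6-206, whose class in the annotation is nonsense-mediated decay, took all 12 counts in replicate 1, and 197 counts with 57.0% of the gene's TPM in replicate 2. In replicate 2 the rest was Syt6-203 with 22.2%, Syt6-201 with 17.5% and Syt6-205 with 3.32%. Transcripts annotated as protein-coding thus held 43.0% of Syt6 in replicate 2. The 12 counts of replicate 1 carry no usable division. Syt6 transcripts also start in 2 regions. By the deposited shares of replicate 2, the first held 77.8% of the gene and the second 22.2%, with the same limit. The RefSeq windows before a start in each region are shown because they hold the alternative starts of the gene that differed most. Both are from GRCm38.p6, plus strand, at chr3:103575032-103575281 and chr3:103575876-103576125, and capitals mark GGGCGG on either strand.
Syt6 first start region: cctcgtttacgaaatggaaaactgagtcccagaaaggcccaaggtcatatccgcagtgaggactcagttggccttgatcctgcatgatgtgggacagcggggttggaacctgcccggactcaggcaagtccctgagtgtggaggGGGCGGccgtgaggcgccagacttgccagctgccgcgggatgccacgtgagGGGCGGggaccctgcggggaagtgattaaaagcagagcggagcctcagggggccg
Syt6 second start region: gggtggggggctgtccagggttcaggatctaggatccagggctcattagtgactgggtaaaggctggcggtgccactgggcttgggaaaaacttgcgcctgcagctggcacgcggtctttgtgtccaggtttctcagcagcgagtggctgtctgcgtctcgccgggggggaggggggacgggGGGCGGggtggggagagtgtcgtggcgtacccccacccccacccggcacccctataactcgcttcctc
The first window was 62.8% G and C with 15 CG pairs and 2 GGGCGG matches. The second was 66.0% G and C with 14 CG pairs and 1 GGGCGG match. Neither held CCAAT or TATAAA. Both were richer in G and C than the median window.

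**Figure D2:**
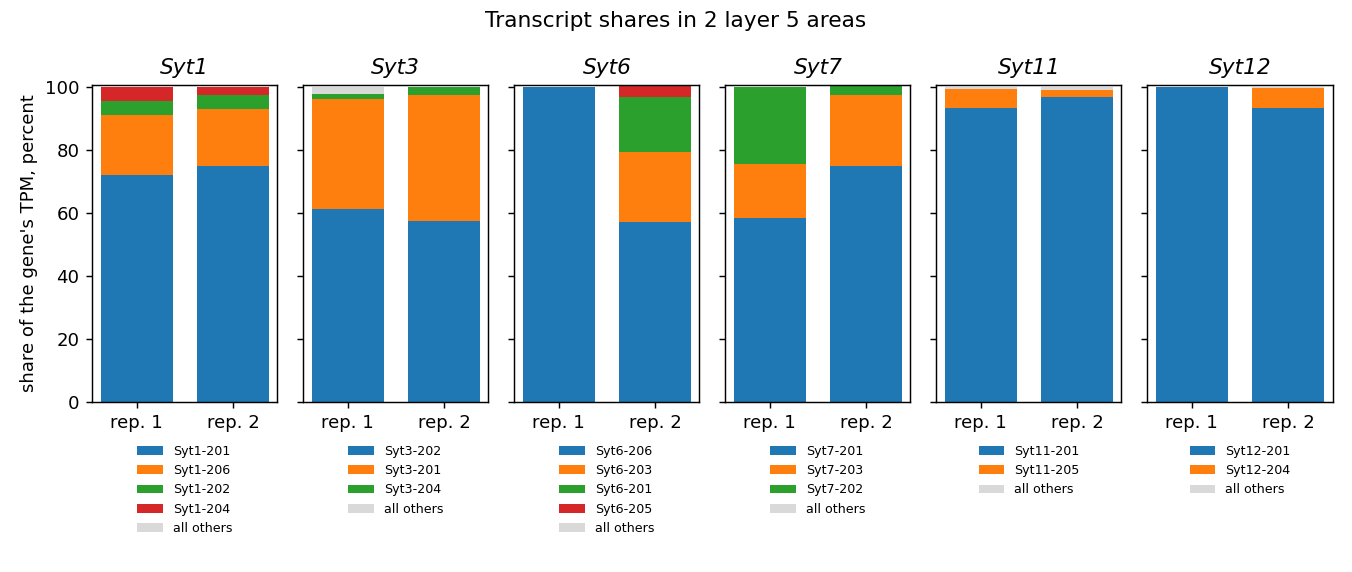
Share of each gene's TPM, in percent, assigned to its transcripts in replicate 1 and replicate 2, for the 6 genes with more than 1 listed transcript; colours are the transcripts named under each panel and grey is all others. Syt1, Syt3, Syt11 and Syt12 are divided alike in both areas, while Syt6 rests on 12 counts in replicate 1 and Syt7-202 has 24.7% and 2.86%.

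The plot of transcript shares summarises the 6 genes for which a division could be seen. The other 4, Syt4, Syt5, Syt13 and Syt17, were listed with 1 transcript each. Of these 6, Syt6 averaged under 5 TPM and its 12 counts in replicate 1 name no leader: the deposited shares put Syt6-206 first in both areas and the posterior mean shares do not. In the other 5 genes the same transcript led in both areas by either share. Over 6464 protein-coding genes with more than 1 listed transcript that averaged at least 5 TPM, the leader differed in 15.3%. A share moved by over 10 percentage points in 1 of the 5 genes, Syt7, against 47.8% of those 6464 genes.

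The members without full calcium binding were led by Syt11, a relative of Syt4 known for restraining endocytosis in neurons. Syt11 (ENSMUSG00000068923.10, chromosome 3, 88744700 to 88775164, minus strand) had 216 TPM in replicate 1 and 239 TPM in replicate 2, or 228 ± 16.5 TPM (SD, n = 2). It ranked 561 and 508 among protein-coding genes. Its log2 ratio was -0.15 and turned to 0.03 when the libraries were scaled by their spike-ins, so it has no direction that holds under every scaling. Syt11-201 held 93.3% and 96.6% of the gene, and Syt11-205 held 5.80% and 2.41%.

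Syt4 is induced by neuronal activity and sits on dense-core vesicles, including those that carry neurotrophins. It lies on the minus strand of chromosome 18 from 31437808 to 31447406 (ENSMUSG00000024261.5). It had 120 TPM in replicate 1 and 100.9 TPM in replicate 2, from 9811 and 8540 counts. Among the 5 most abundant genes of the 10, it was the only one higher in replicate 1, with a log2 ratio of 0.25 (Syt11 joined it under spike-in scaling). Its count ratio of 1.25 had a 95% interval of 1.21 to 1.28, but 37.1% of the genes at 100 to 500 TPM differed by more. Syt1 stood 3.15 times above Syt4 in replicate 1 and 5.64 times above it in replicate 2. Syt4 shares 566 exon bases with the antisense gene Gm26658, which had 63.1 and 1.10 counts, and reads of the 2 genes cannot be told apart without a strand setting.

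Syt13 and Syt12 were lower, and both were higher in replicate 2. Syt13 (ENSMUSG00000027220.2, chromosome 2, 92915098 to 92956058, plus strand) had 32.6 TPM in replicate 1 and 51.7 TPM in replicate 2. Its count ratio was 0.661, with a 95% interval of 0.629 to 0.694, and 10.9% of the 3189 genes at 20 to 100 TPM differed by more. Syt12, a vesicle protein that is phosphorylated by protein kinase A, is ENSMUSG00000049303.6, on the minus strand of chromosome 19 from 4445908 to 4477447. It had 7.56 TPM in replicate 1 and 13.3 TPM in replicate 2, a log2 ratio of -0.74, which 19.4% of the 4089 genes at 5 to 20 TPM exceeded in size. The protein-coding Syt12-201 held 100% and 93.2% of it by deposited shares, but 89.1% and 86.8% by posterior mean shares. Syt12 shares 950 exon bases with A930001C03Rik, on the opposite strand, which had 28.4 and 27.2 counts.

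Syt17, also called B/K protein, differs from the others in having no transmembrane segment. It was the 1 gene of the 10 that was more than 2-fold higher in replicate 1. The gene (ENSMUSG00000058420.5, chromosome 7, 118380717 to 118448222, minus strand) had 10.7 TPM in replicate 1 and 3.40 TPM in replicate 2, from 348 and 115 counts. Its deposited TPM intervals, 9.30 to 11.5 and 2.74 to 3.96, did not overlap. Its log2 ratio was 1.40, and 3.69% of the genes at 5 to 20 TPM differed by more. The count ratio of 3.28 had a 95% interval of 2.65 to 4.09. M4 lists Syt17 with 1 transcript of 1617 bases and M21 with one of 2764, so its TPM depends on the release.

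Set side by side, 7 of the 10 synaptotagmins were higher in replicate 2 and 3 in replicate 1, where 54.0% of the 11841 protein-coding genes that averaged at least 1 TPM were higher in replicate 2. Beyond 2-fold lay 2 of the 10, Syt6 and Syt17, 1 in each direction. Over all 11841 genes 10.3% lay beyond 2-fold, 4.99% higher in replicate 1 and 5.31% higher in replicate 2. A count of 2 among 10 genes is not read as a departure from that background. The median log2 ratio of the 10 was -0.45, against -0.05 for all genes tested, and the median size of the difference was 0.52, against 0.33. The deposited TPM intervals of the areas did not overlap for 9 of the 10, against 59.6% of the 11841 genes. That background was not matched for abundance, on which the width of an interval depends, so these shares are not like for like. Both areas came from 1 animal and each side is 1 library. The differences given here are thus between 2 libraries and have no replicate check.

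**Figure D3:**
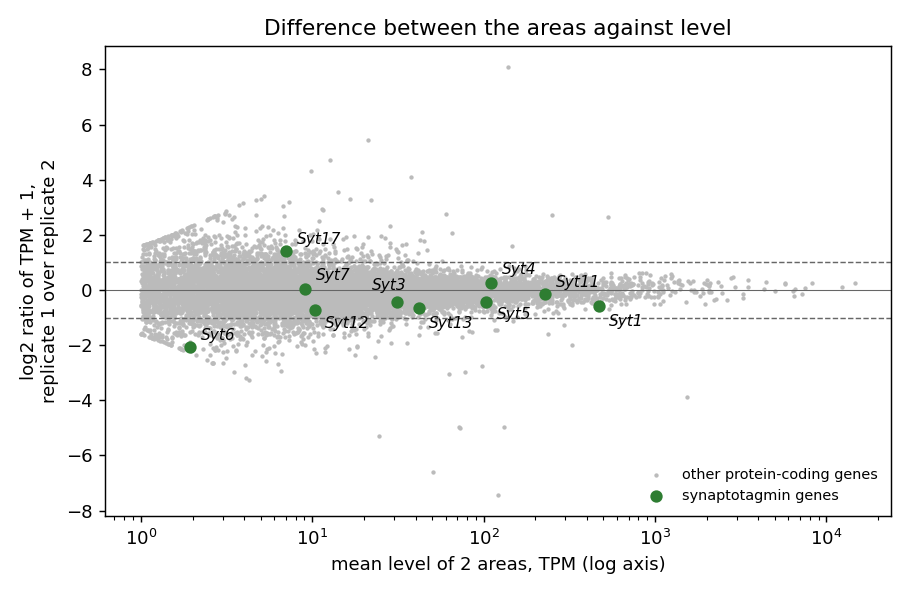
Log2 ratio of TPM + 1, replicate 1 over replicate 2, against mean TPM on a log axis for the 10 synaptotagmin genes (green) and all other protein-coding genes that averaged at least 1 TPM (grey), with dashed lines at 2-fold. Syt17 at 1.40 and Syt6 at -2.06 lie outside the lines, and the other 8 lie inside, between -0.74 for Syt12 and 0.25 for Syt4.

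The differences were then set out under 8 settings of scale and normalization. Every setting kept Syt6 and Syt17 beyond 2-fold and the other 8 genes within it. Syt17 ranged from 1.39 to 1.62. Syt6 ranged from -4.05 with a pseudocount of 0.1 to -1.87 with posterior mean TPM, so that its size rests on the setting and its direction does not. Scaling the counts by spike-ins put the median gene at 0.15 in place of -0.05. The ratios of 9 of the 10 genes were then higher than in TPM, and that of Syt6 was -2.88. Under that scaling 6 of the 10 genes lay below 0, on the side of replicate 2, against 38.1% of the 11841 genes. Relative to the median gene, 7 of the 10 lay on the side of replicate 2 under either scaling, Syt11 at 0.03 among them. Centred on the median gene, Syt1 had -0.55, Syt13 -0.61 and Syt12 -0.69.

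**Figure D4:**
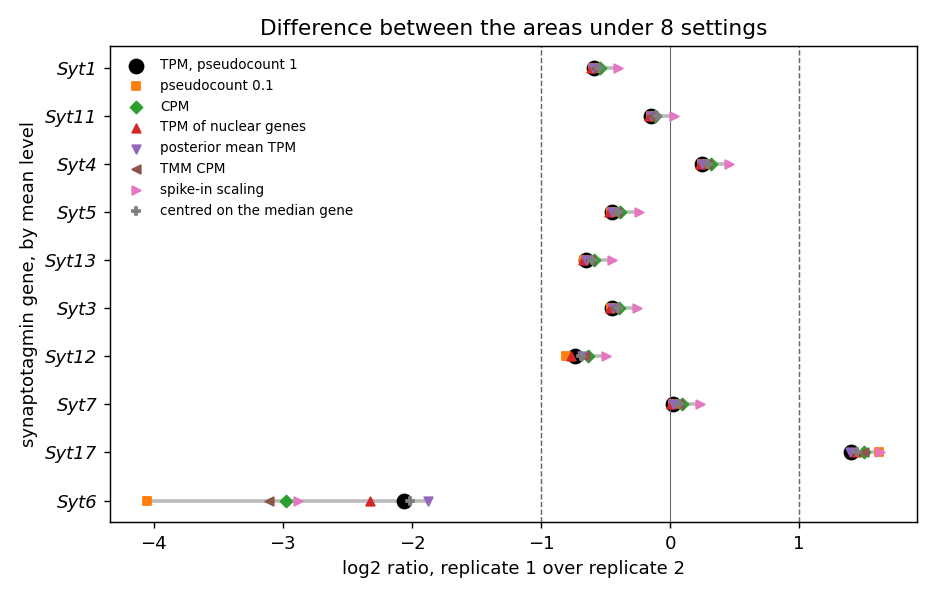
Log2 ratio of replicate 1 over replicate 2 for each of the 10 synaptotagmin genes under 8 settings (symbols), with a grey line over their range and dashed lines at 2-fold. Syt6, from -4.05 to -1.87, is the widest, and Syt11, from -0.16 to 0.03, is the gene whose settings fall on both sides of 0.

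The rest of the family and its partners gave the surroundings of these values. Of 7 other synaptotagmin genes, 4 reached 1 TPM in both areas. Syt2, the fast sensor of many parvalbumin cells, had 66.9 TPM in replicate 1 and 18.4 TPM in replicate 2, Syt16 had 31.7 and 41.1 TPM, Syt14 had 4.63 and 3.80 TPM, and Syt9 had 1.05 and 1.75 TPM. Syt8 and Syt15 had 0 counts in both. Syt2 and Syt1 thus differed in opposite directions between the areas, with Syt2 and Pvalb higher in replicate 1. Of 16 related C2 proteins, 7 reached 1 TPM in both areas, 6 of them higher in replicate 2 (4 under spike-in scaling) with a median log2 ratio of -0.24. The most abundant were the Rab3 effector Rph3a, with 37.7 and 61.5 TPM, the Rab27 effector Sytl2, with 28.8 and 31.4 TPM, and Mctp1, with 7.5 and 9.04 TPM.

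Most partners in calcium-triggered fusion were higher in replicate 2, as most of the synaptotagmins were. Of 21 matched genes, 20 reached 1 TPM in both areas, and 15 of those 20 were higher in replicate 2, with a median log2 ratio of -0.30 and none beyond 2-fold. Over all 11841 genes 54.0% were higher in replicate 2 and the median was -0.05. Under spike-in scaling 12 of the 20 partners were higher in replicate 2, with a median of -0.06 and 1 beyond 2-fold, against 38.1% of all genes and their median of 0.15. The 8 neuron markers were all higher in replicate 2 as well, with a median of -0.25, but 6 of 8 were so under spike-in scaling, with a median of -0.01. The most abundant partner was the plasma membrane SNARE Snap25, at 5995 TPM (replicate 1) and 6966 TPM (replicate 2), followed by its relative Snap47, with 412 and 506 TPM, and Napa, the adaptor of SNARE disassembly, with 374 and 393 TPM. The least abundant were the widely expressed SNARE Snap23, with 4.61 and 3.71 TPM, the vesicle protein Sv2c, with 5.08 and 2.71 TPM, and the complexin Cplx3, with 1.02 and 0.25 TPM. Whether the synaptotagmins moved with the amount of neuronal RNA in each area was not tested.

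**Figure D5:**
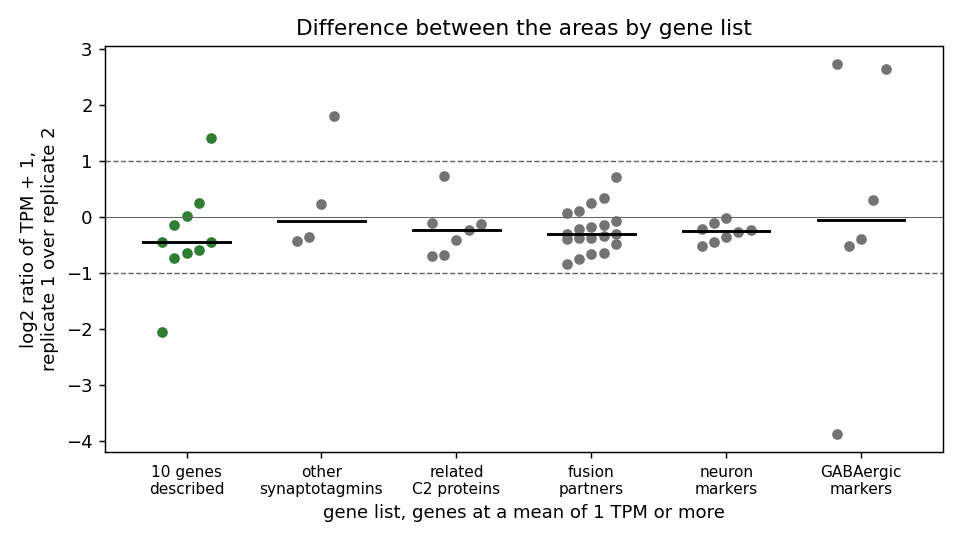
Log2 ratio of TPM + 1, replicate 1 over replicate 2, of each gene averaging at least 1 TPM in the 10 synaptotagmin genes (green) and in 5 other lists (grey), with a bar at each list's median and dashed lines at 2-fold. The medians of the 10 genes (-0.45), the fusion partners (-0.30) and the neuron markers (-0.25) lie below 0 on this scale (-0.06 for the partners and -0.01 for the neuron markers under spike-in scaling), and Syt2 is the one other synaptotagmin above the upper line.

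The genes whose levels were most like those of the 3 most abundant synaptotagmins were found by distance on log2(TPM + 1) over the 2 areas, among 21473 other protein-coding genes. With 2 areas this compares only a level and a ratio. Nearest to Syt1 were Rtn3 at a distance of 0.09, Tmem59l at 0.12 and Prnp at 0.15. Nearest to Syt11 were Lamtor5 and Pmm1 at 0.02 each and Abhd12 at 0.03. Nearest to Syt4 were Cetn2 at 0.02, and 1110065P20Rik and Chmp5 at 0.03 each.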

How the data were processed

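RNA of 2 laser-captured layer 5 areas was sequenced after a Smart-seq type preparation with spike-ins, per the labels' protocols. The deposited gene and transcript tables held an expected count per feature, TPM scaled by the authors over all features, a posterior mean of both with its interval bounds (deposited as a score whose level is not stated), and the percent of a gene's TPM held by each of its transcripts. The deposited FPKM were not used. Assembly mm10 and annotation M4 are given in the deposited text files. The column layout was that of RSEM. For the program, the aligner and the strand setting, no name was given in the sources used here.

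Symbols and coordinates came from GENCODE M21 on the same assembly, where 42462 of 43346 Ensembl rows had a symbol. The 10 genes and all lists were chosen with earlier results of these data known. The rule named all 10 genes, other synaptotagmins at 1 TPM or more in both areas, the 3 highest related C2 proteins, the 3 highest and 3 lowest fusion partners (Stn2 was not matched), and the 3 nearest genes of Syt1, Syt4 and Syt11. Syt8, Syt15 and the markers printed were named after their values were seen.

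Ratios were replicate 1 over replicate 2 on log2(TPM + 1), which understates changes of low genes, and count ratios had exact Clopper-Pearson 95% intervals. Since the reads have no molecular identifiers, every interval or floor covers only counting error. Libraries of 26059117 and 28276843 counts had a chi-square per degree of freedom of 69.4 over 12604 genes, so they were not copies. Without a contrast no p-value was computed. The steps were tested on simulated data with counting error only and changes larger than 2-fold in well-counted genes. That simulation does not cover 2-fold changes, low counts or the wider spread between these libraries. Promoter windows came from RefSeq, build GRCm38.p6, and were present for Syt1, Syt3, Syt6 and Syt11; 4 windows are shown. A planned comparison of protein sequences was not analysed here. Alternatives were a pseudocount of 0.1, other TPM minimums, CPM, TPM of nuclear genes, posterior means, TMM-scaled CPM from edgeR 4.0.16 in R 4.3.3, spike-in scaling, centring on the median gene and leaving out each library. The remaining steps ran in Python 3.11.15 with scipy 1.17.1, pandas 2.3.3, matplotlib 3.10.9 and numpy 2.4.6.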

Additional observations from a re-analysis of the deposited data

How the results depend on the processing

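The counts of synaptotagmins beyond 2-fold (2) and of those with the same leading transcript stayed within 1.5 times under the alternatives run for them. The leader count was 6 by deposited shares and 5 by posterior means, which drop Syt6. The 12 counts of Syt6 in replicate 1 name no leader. Among the 6464 background genes the leader differed in 15.3%. The number detected in both areas was 9, with 8 at a minimum of 5 TPM and 10 at 0.1 TPM, and it was 9 to 10 when one library was left out. With 2 libraries, leaving one out only returns the value of the other, so it is no check of the processing. The summed level was then 886 or 1146 TPM and the share of Syt1 42.6% or 49.7%. The share of all genes beyond 2-fold was 6.10% of 8511 genes at a mean of at least 5 TPM, against 10.3% as reported, because the least abundant genes were then left out. In CPM, which is not per length, the 10 genes summed to 3034 ± 466 CPM (SD, n = 2). Of the other values under alternatives, 39 moved by more than the spread or limit set for them and 104 did not. None reversed a called direction. The 104 include values with one library left out, which cannot move by more than the SD of 2 libraries. Some of the 39 are only the change of unit from TPM to CPM. The tally is thus no measure of how robust the values are. No paired analysis was possible because there is 1 group. Depth limits Syt6 most: its level in replicate 1 rests on 12 counts.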
